A study of Mus musculus with 16 samples.

Results

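Transcripts of the exocrine pancreas were present at high levels in some colon RNA samples and low in others. The arrays of each class were chosen by the level of Cpa1, the gene of a pancreatic carboxypeptidase: of 16 arrays, 8 above 9 log2 units are called here the arrays with pancreatic transcripts, and the 8 below are those without. The division uses a measured value and no label of the study, so the Cpa1 values and those of other pancreatic genes below are a description of the 2 classes. Every difference between the classes is given within treatment group, with the group as a factor in the model.

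Colonic RNA of outbred Swiss Webster mice was hybridised to Affymetrix Mouse Exon ST arrays, with 4 arrays in each of 4 groups. All animals began as germ-free mice. The GF group stayed germ-free, 1 group was colonised with Bifidobacterium UCC2003 alone, 1 with its TadA mutant alone, and the CONV group was re-conventionalised, that is, given a full microbiota. TadA is encoded with the genes of the tight adherence (Tad) pilus, a bacterial surface fibre. The labels name the arrays of a group as biological replicates. According to the design text there were 5 CONV animals, and 4 arrays of that group are used here. Neither sex nor age is given in the sources used here.

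Acinar cells of the pancreas make and secrete digestive enzymes as inactive or active proteins, packed in zymogen granules. Their enzyme genes are switched on by the PTF1 complex, in which RBPJL is a subunit next to PTF1A, and BHLHA15 (MIST1) is a transcription factor that maintains the secretory apparatus. PTF1 binds DNA through an E-box, CANNTG, and a nearby TGGGAA-type box. Islet cells are the endocrine part of the same organ and make insulin and other hormones. A healthy colon epithelium is built of absorptive, goblet and enteroendocrine cells and is not known for acinar enzymes.

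The 250 bases before the start of 4 genes higher on the same arrays are shown, since PTF1 is the known regulator of acinar enzymes. The sequences are from RefSeq on GRCm38.p6, written 5′ to 3′ on the strand of the gene, and capitals mark each TGGGAA and each CANNTG, both searched on both strands. Cpa1 is at chr6:30638968-30639217 on the plus strand, Cel at chr2:28563404-28563653 on the minus strand, Gp2 at chr7:119459273-119459522 on the minus strand and Rbpjl at chr2:164402944-164403193 on the plus strand.
Cpa1: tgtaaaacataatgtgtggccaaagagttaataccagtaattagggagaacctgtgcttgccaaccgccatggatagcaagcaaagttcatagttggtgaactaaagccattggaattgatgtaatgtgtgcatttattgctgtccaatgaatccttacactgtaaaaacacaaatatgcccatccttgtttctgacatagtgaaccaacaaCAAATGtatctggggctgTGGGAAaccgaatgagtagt
Cel: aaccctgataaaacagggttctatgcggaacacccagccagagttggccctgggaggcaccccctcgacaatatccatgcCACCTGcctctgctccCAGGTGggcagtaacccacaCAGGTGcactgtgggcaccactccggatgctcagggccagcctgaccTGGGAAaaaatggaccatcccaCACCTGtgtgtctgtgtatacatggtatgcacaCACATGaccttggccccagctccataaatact
Gp2: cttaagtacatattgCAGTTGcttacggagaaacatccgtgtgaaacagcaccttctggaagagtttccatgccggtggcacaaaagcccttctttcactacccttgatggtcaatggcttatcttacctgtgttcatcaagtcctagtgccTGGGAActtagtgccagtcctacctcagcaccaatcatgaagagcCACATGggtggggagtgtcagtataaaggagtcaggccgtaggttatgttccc
Rbpjl: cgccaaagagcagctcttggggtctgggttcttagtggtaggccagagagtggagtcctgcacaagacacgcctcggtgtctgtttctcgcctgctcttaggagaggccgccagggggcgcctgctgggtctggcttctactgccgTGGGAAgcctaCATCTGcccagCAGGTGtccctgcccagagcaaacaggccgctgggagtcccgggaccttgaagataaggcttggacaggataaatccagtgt
Of the 11 acinar genes measured, 10 were in the promoter table. TGGGAA was found upstream of 8 of the 10 and in 21.6% of all 32851 windows of this length, CANNTG upstream of 8 and in 66.2%, and both upstream of 6 and in 14.8%. The 4 genes shown are among the 6 with both. Of those not shown, Bhlha15 and Tmed6 had no TGGGAA, and Rnase1 and Sycn had no CANNTG. A match says only that these letters are there, and whether PTF1 acted on these genes here was not tested.

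Cpa1 stood at 13.24, 13.12 and 12.95 log2 units on GF replicates 2 to 4 and at 4.96 on GF replicate 1. In the UCC2003 group it was at 13.22 and 13.29 on replicates 1 and 3, and at 5.03 and 4.38 on replicates 2 and 4. In the TadA mutant group it was at 13.11 on replicate 2, and at 4.73, 5.01 and 7.49 on replicates 1, 3 and 4. In the CONV group it was at 12.93 on replicate 4 and 10.92 on replicate 2, against 5.10 and 5.35 on replicates 1 and 3. Every treatment group therefore held both classes: 3 GF, 2 UCC2003, 1 TadA mutant and 2 CONV arrays had the transcript. The values nearest the threshold were 10.92, with the next at 12.93, and 7.49, with the next at 5.35. Within treatment group the classes differed in Cpa1 by 7.68 ± 0.44 log2 units (SE, 8 against 8 arrays), a 205-fold difference in intensity, which is what the division selected. How these transcripts came to be in the colon RNA was not tested, and more acinar cells cannot be told apart from more RNA per cell in a bulk sample.

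The other 3 measured acinar enzyme genes followed the same division, with no overlap between the classes. Cel, the gene of a pancreatic lipase that splits cholesterol esters, ran from 9.92 to 12.95 with a median of 12.63 on the arrays with pancreatic transcripts and from 4.61 to 6.50 with a median of 4.96 on those without. Rnase1, the pancreatic ribonuclease gene, ran from 11.10 to 13.22 (median 13.02) against 4.61 to 7.64 (median 5.06). The clone-named protein-coding gene 2210010C04Rik, which was listed with the acinar enzymes, ran from 11.60 to 12.99 (median 12.83) against 4.04 to 7.38 (median 4.82). On every array with pancreatic transcripts each of these 3 genes was above its highest value on an array without them. The same held for 77 of all 23332 clusters (0.33%). Nothing is read from the count of 3, since these genes belong to the transcripts that the division selected. The differences within treatment group were 7.24 ± 0.41 for Cel, 7.50 ± 0.41 for Rnase1 and 7.80 ± 0.40 for 2210010C04Rik.

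**Figure D1:**
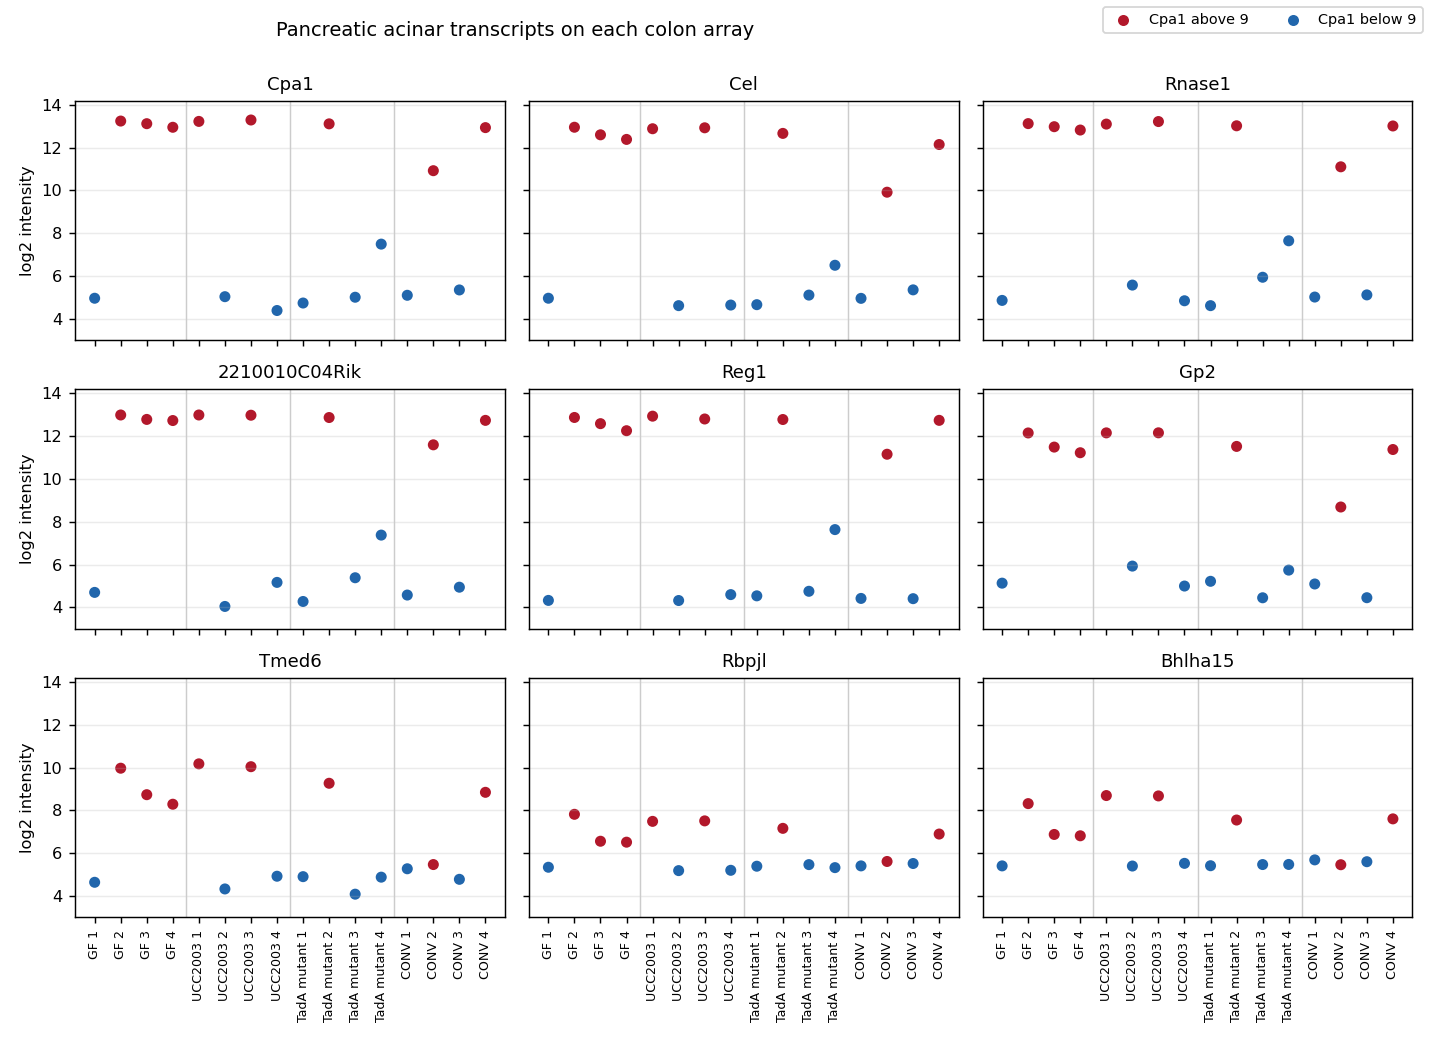
Log2 intensity of 9 acinar genes on each of the 16 arrays, one panel a gene and one point an array, with red for arrays whose Cpa1 is above 9 and blue for those below. The enzyme genes, Reg1 and Gp2 split into 2 levels in every group, with CONV replicate 2 lowest among the red points and TadA mutant replicate 4 highest among the blue points of Cpa1, Cel, Rnase1, 2210010C04Rik and Reg1.

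Among genes of the acinar secretory granule and of acinar regulation, 7 were measured. Reg1, a secreted protein of acinar cells, differed by 7.85 ± 0.43, which with 7.80 ± 0.40 for 2210010C04Rik and 7.68 ± 0.44 for Cpa1 is 1 of 3 differences of like size. Their medians on the arrays without pancreatic transcripts lay below the median of all clusters, 5.91 to 6.03 per array, where signal over background was not tested, so their sizes give no order. Its values ran from 11.16 to 12.94 (median 12.76) on the arrays with pancreatic transcripts and from 4.32 to 7.63 (median 4.48) on the others. Gp2, the main glycoprotein of the zymogen granule membrane, ran from 8.69 to 12.16 (median 11.51) against 4.45 to 5.93 (median 5.11), a difference of 6.18 ± 0.38. GP2 is also known on intestinal M cells. Tmed6, a cargo receptor family member of the early secretory pathway, ran from 5.47 to 10.18 (median 9.06) against 4.08 to 5.27 (median 4.83), a difference of 4.11 ± 0.55.

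The transcription factor genes had smaller log2 differences. Their medians on the arrays without pancreatic transcripts also lay below the array medians of 5.91 to 6.03, so here too the sizes give no order. Rbpjl ran from 5.61 to 7.82 (median 7.03) on the arrays with pancreatic transcripts and from 5.18 to 5.52 (median 5.37) on those without, with no overlap and a difference of 1.61 ± 0.26. Bhlha15 ran from 5.46 to 8.69 (median 7.58) against 5.40 to 5.69 (median 5.47), and the overlap came from CONV replicate 2. Its difference was 2.04 ± 0.38. BHLHA15 also serves other secretory cells such as gastric chief cells and plasma cells. Within each treatment group both genes were higher on the arrays with pancreatic transcripts: in UCC2003 Rbpjl by 2.31 and Bhlha15 by 3.22, in TadA mutant by 1.77 and 2.10, in GF by 1.62 and 1.93, and in CONV by 0.79 and 0.89.

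Sycn and Zg16, 2 genes named for zymogen granules, were high on all arrays. Sycn, which encodes syncollin, a granule membrane protein, ran from 12.13 to 13.44 (median 13.20) on those with pancreatic transcripts and from 11.88 to 13.19 (median 12.27) on those without. Its values overlapped, with CONV replicate 2 low in the first class at 12.13 and UCC2003 replicate 4 and CONV replicate 1 high in the second at 13.19 and 12.93. The difference was 0.67 ± 0.21, higher in all 4 groups, by 1.24 in TadA mutant, 0.93 in GF, 0.61 in UCC2003 and 0.10 in CONV. Zg16, which goblet cells of the colon also make as a mucus lectin, had medians of 12.80 and 12.79 and a difference of -0.07 ± 0.06.

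Levels relative to Cpa1 varied more for some acinar genes than for others. Over the 8 arrays with pancreatic transcripts, the log2 value minus that of Cpa1 had an SD of 0.12 for Rnase1, 0.25 for Cel, 0.28 for Reg1, 0.33 for 2210010C04Rik and 0.40 for Gp2. Without CONV replicate 2 it was 0.08 for Rnase1, 0.17 for Cel and Reg1, 0.05 for 2210010C04Rik and 0.29 for Gp2. On those 7 arrays Cpa1 itself spanned only 12.93 to 13.29, while Tmed6 spanned 8.29 to 10.18, and whether the brightest probes had reached the top of their range was not tested. For the genes with lower values the SD over all 8 arrays was wider, 0.44 for Rbpjl, 0.64 for Bhlha15 and 0.82 for Tmed6. Without CONV replicate 2 it was 0.40, 0.69 and 0.62. The summed linear intensity of 6 acinar transcripts (Cpa1, Cel, Rnase1, 2210010C04Rik, Reg1 and Gp2) made up 0.265% to 1.14% of the total over all clusters on the arrays with pancreatic transcripts, and 0.0039% to 0.0213% on the others. Intensities of different probes are not on a common scale of RNA amount, so these shares describe array signal only.

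2 arrays lay between the classes. CONV replicate 2 was below the median of the other 7 arrays with pancreatic transcripts in each of 7 genes, with a difference of -2.20 log2 units in Cpa1, -2.75 in Cel, -1.92 in Rnase1, -1.28 in 2210010C04Rik, -1.62 in Reg1, -2.83 in Gp2 and -3.80 in Tmed6. On this array the listed genes other than Tmed6 were still far above every array without pancreatic transcripts. Tmed6 at 5.47 and Rbpjl at 5.61 were just above the highest of those arrays, 5.27 and 5.52. Bhlha15 at 5.46 was within their range. TadA mutant replicate 4 was above every other array without pancreatic transcripts in 5 genes, exceeding their median by 2.48 in Cpa1, 1.55 in Cel, 2.63 in Rnase1, 2.68 in 2210010C04Rik and 3.22 in Reg1. In Gp2, Tmed6, Rbpjl and Bhlha15 it lay within the range of the other 7. The 6 acinar transcripts held 0.265% of the summed intensity on CONV replicate 2, the lowest share of its class, and 0.0213% on TadA mutant replicate 4, the highest of the other class. Without these 2 arrays, an alternative chosen after their values were seen, the class differences were 8.20 in Cpa1, 7.75 in Cel, 1.83 in Rbpjl and 2.39 in Bhlha15.

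The measured islet genes were not divided in this way. Of 24 islet genes listed 6 were measured, and all 6 class ranges overlapped. So did those of nearly all clusters: of 23332, 77 (0.33%) lay wholly above and 3 (0.0129%) wholly below on the arrays with pancreatic transcripts. The count therefore says nothing particular about the list. Ins1, an insulin gene, stood at 9.33 and 9.22 on GF replicates 4 and 3, at 8.86 on UCC2003 replicate 1 and at 8.40 on GF replicate 2. It was at 7.66 on TadA mutant replicate 2, 7.49 on UCC2003 replicate 3, 6.90 on CONV replicate 4 and 6.39 on CONV replicate 2, the remaining arrays with pancreatic transcripts. The 8 arrays without ran from 6.39 to 7.05 (median 6.95). Thus 6 arrays with acinar transcripts exceeded every array without them in Ins1, and the CONV pair did not. The difference over the 4 groups was 0.92 ± 0.33. Taken singly it was 2.10 for GF, 1.41 for UCC2003, 0.83 for the TadA mutant and -0.39 for CONV.

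Ins1 also did not rank the arrays as the acinar genes did. GF replicates 3 and 4, highest in Ins1, had 6.56 and 6.51 in Rbpjl, the lowest of the class except for CONV replicate 2, while UCC2003 replicate 3 had 7.51 in Rbpjl and 7.49 in Ins1. Iapp, the islet amyloid polypeptide gene, had its highest values on the same 2 GF arrays, 6.42 and 6.23, and a class difference of 0.18 ± 0.26. Ppy, the pancreatic polypeptide gene, differed by 0.10 ± 0.19, and the beta cell genes Ucn3, Nkx6-1 and Mafa by 0.06 ± 0.29, 0.06 ± 0.08 and 0.05 ± 0.10. None of the 10 pancreatic duct genes listed was measured under a single symbol.

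To see what else went with the division, all 23332 clusters were fitted together, and genes outside the pancreas lists were tested for association with the class. By limma's moderated test, two-sided, with Benjamini-Hochberg adjustment over all clusters and a threshold of 0.05, 98 clusters (0.42%) were called, 92 higher (0.394%) and 6 lower (0.0257%) on the arrays with pancreatic transcripts. An unadjusted p under 0.05 was reached by 2120. The pancreas lists supplied 9 of the 98, from which nothing is read, since these genes belong to the transcripts that the division selected. In 77 clusters (0.33%) all 8 arrays with pancreatic transcripts were above all 8 without, and in 3 (0.0129%) all were below. All 92 higher clusters had the same direction in each of the 4 treatment groups, as had the 6 lower ones.

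The division was lopsided: 39 clusters differed by more than 2 log2 units upward and 0 by more than 2 downward. Above 5 log2 units lay 23 clusters, of which 6 have a gene name here: Reg1, 2210010C04Rik, Cpa1, Rnase1, Cel and Gp2. The higher called clusters had a median difference of 1.58, and the 6 lower ones ran from -0.56 to -0.31. The median over all clusters was -0.0025. Only 16 of the 98 carry exactly 1 symbol (0.811% of the 1973 clusters with 1 symbol), so 82 called clusters are not named here. The 92 higher clusters together held 1.31% to 4.64% of the summed linear intensity on the arrays with pancreatic transcripts and 0.272% to 0.361% on the others.

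The count of 98 rested on single arrays. It rose to 158 without CONV replicate 2 and was 135 without both CONV replicate 2 and TadA mutant replicate 4. It fell to 40 without TadA mutant replicate 2, to 43, 42, 46 and 46 without UCC2003 replicates 1, 2, 3 and 4, to 46 without GF replicate 1, to 60 without CONV replicate 4 and to 65 without CONV replicate 1 or 3.

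**Figure D2:**
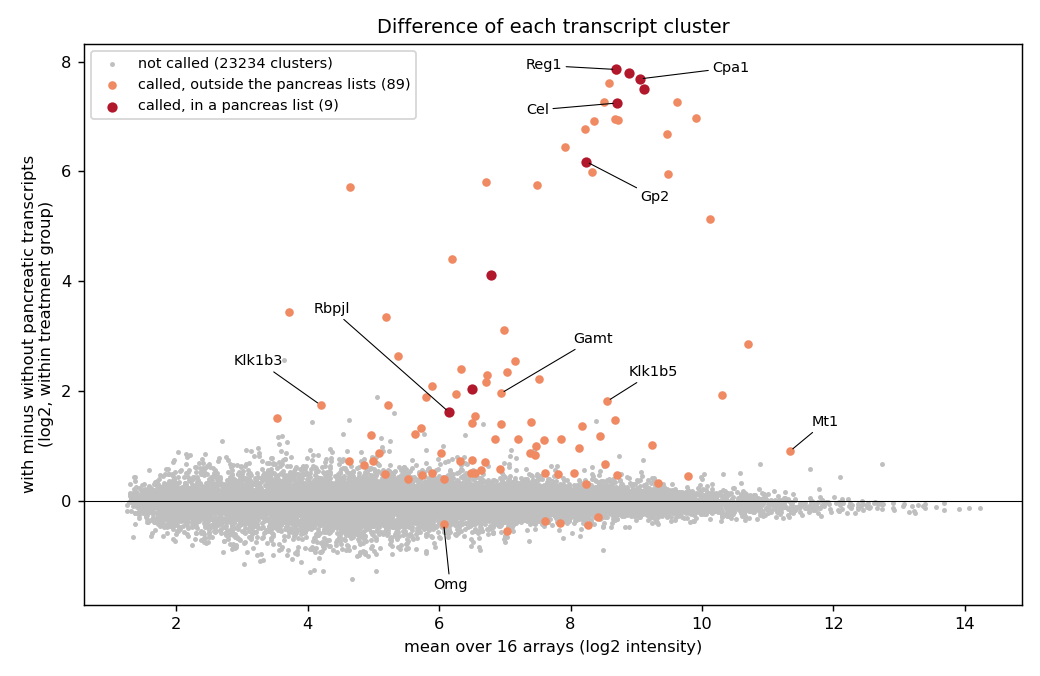
Difference between arrays with and without pancreatic transcripts within treatment group (log2, y axis) against the mean over 16 arrays (log2 intensity, x axis), one point a transcript cluster. The 9 called clusters of the pancreas lists (dark red) and 89 other called clusters (orange) lie mostly above 0, up to 7.85, and the 6 lower ones end at -0.56.

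Outside the pancreas lists, 5 called clusters had an established gene name. Klk1b5, a kallikrein 1-related peptidase, ran from 7.76 to 10.29 (median 9.40) on the arrays with pancreatic transcripts and from 6.72 to 8.18 (median 7.68) on those without. The overlap came from CONV replicate 2 at 7.76. It was higher by 1.81 ± 0.25 (adjusted p = 0.00408, limma), in all 4 groups. A second member of the family, Klk1b3, ran from 3.91 to 6.07 (median 4.94) against 2.91 to 3.81 (median 3.30), with no overlap, and was higher by 1.74 ± 0.28 (adjusted p = 0.0162, limma). Glandular kallikreins are secreted serine proteases known from pancreas and salivary gland. The mouse genes are near-identical neighbours, so signal shared between members is possible and was not tested.

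Gamt, the enzyme of the last step of creatine synthesis, was at 9.01, 8.88 and 8.83 on UCC2003 replicate 1, GF replicate 2 and UCC2003 replicate 3. It was at 8.01 on TadA mutant replicate 2, at 7.53, 7.42 and 7.28 on GF replicate 3, CONV replicate 4 and GF replicate 4, and at 6.35 on CONV replicate 2. The arrays without pancreatic transcripts lay between 5.83 and 6.22. The classes did not overlap, and Gamt was higher by 1.95 ± 0.32 (adjusted p = 0.0165, limma), by 3.04 within UCC2003, 2.05 within TadA mutant, 1.87 within GF and 0.85 within CONV. The 3 arrays highest in Gamt were also the 3 highest in Bhlha15, at 8.69, 8.32 and 8.68, and in Tmed6, at 10.18, 9.97 and 10.04.

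Mt1, a zinc-binding metallothionein, was abundant on all arrays. It ran from 10.70 to 12.17 (median 11.97) with pancreatic transcripts and from 10.34 to 11.40 (median 10.88) without. The lowest value of the first class again was CONV replicate 2, and the other 7 arrays, at 11.76 or more, were above every array of the second class. The difference was 0.90 ± 0.17 (adjusted p = 0.0385, limma), higher in 4 of 4 groups. Omg, a myelin-associated glycoprotein gene of the nervous system, was the 1 named cluster that was lower, with 5.58 to 6.23 (median 5.79) against 6.02 to 6.62 (median 6.20), a difference of -0.42 ± 0.08 (adjusted p = 0.0313, limma), and the classes overlapped.

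The 5 calls were lost in different settings. Klk1b5 stayed called when any 1 array was left out. Klk1b3 lost its call without UCC2003 replicate 1 or 2, TadA mutant replicate 2 or GF replicate 1, with adjusted p between 0.0524 and 0.0853 (limma). Gamt lost it without any 1 UCC2003 array, TadA mutant replicate 2 or GF replicate 1, with adjusted p between 0.0533 and 0.0885 (limma). Mt1 lost it without any 1 of 13 arrays, all but GF replicate 3 and CONV replicates 2 and 4, with adjusted p between 0.0512 and 0.130 (limma). Omg lost it without UCC2003 replicate 1, 3 or 4, TadA mutant replicate 2 or 3, GF replicate 1 or CONV replicate 1, 3 or 4, with adjusted p between 0.0638 and 0.170 (limma). In the ordinary fit, without the shared variance estimate, Gamt, Klk1b3 and Mt1 lost their calls (adjusted p = 0.0573, 0.0555 and 0.0916). Omg lost its call without the CONV group (adjusted p = 0.223, limma), with the Cpa1 level in place of the class (0.0727) and with no group factor (0.207). A Cpa1 threshold of 7 in place of 9 ended all 5 calls, with adjusted p from 0.112 for Klk1b5 to 0.51 for Omg (limma). Without CONV replicate 2 and TadA mutant replicate 4 together, Klk1b5 was higher by 2.04, Gamt by 2.20, Klk1b3 by 1.91 and Mt1 by 1.04, all still called, and Omg was at -0.40 with an adjusted p of 0.0635 (limma).

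**Figure D3:**
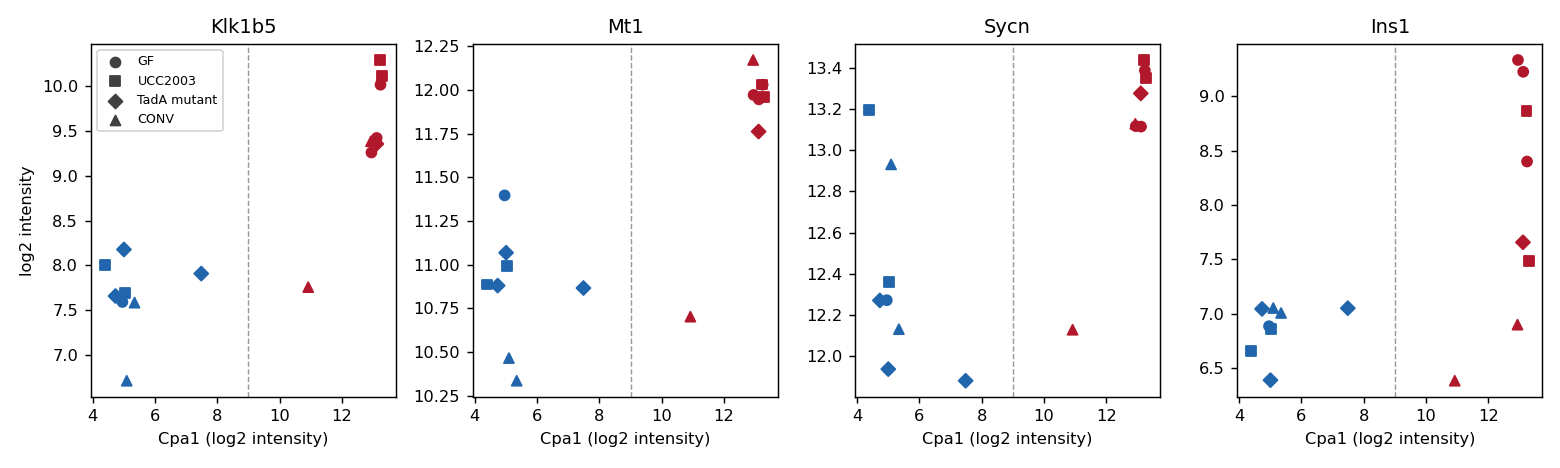
Log2 intensity of Klk1b5, Mt1, Sycn and Ins1 (y axes) against Cpa1 (x axis, log2 intensity), one point an array, with the group as the symbol, red right of the dashed line at Cpa1 9 and blue left of it. Klk1b5 and Mt1 are high on 7 of the 8 red arrays, Sycn is high on some blue arrays too, and Ins1 spreads from 6.39 to 9.33 among the red arrays.

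The clusters whose values minus group means followed those of Cpa1 most closely over the 16 arrays, by Pearson's correlation, were ranked among those with 1 symbol. The first 10 were the acinar genes Cel, Rnase1, 2210010C04Rik, Reg1, Gp2, Tmed6 and Rbpjl, together with Gamt, Klk1b5 and the long non-coding RNA gene 1810018F18Rik on chromosome 19. The coefficients themselves mostly restate the 2 levels of Cpa1 and are not given. The RNA 1810018F18Rik ran from 5.94 to 9.74 (median 8.36) on the arrays with pancreatic transcripts and from 2.79 to 5.14 (median 3.93) on the others. It differed by 4.39 ± 0.53, and as elsewhere CONV replicate 2 was the lowest of its class. No p-value is given for it, since it was named here for following Cpa1, from which the class was made.

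Markers of the colon itself were present in both classes. The 9 absorptive colonocyte genes averaged 9.02 to 9.98 log2 units per array with pancreatic transcripts and 9.07 to 10.08 without, and the 3 goblet cell genes 10.41 to 11.19 against 10.66 to 11.39. Lypd8, a secreted protein of colonocytes that keeps bacteria from the epithelium, had medians of 13.01 and 13.09 and a difference of -0.09 ± 0.05 (adjusted p = 0.579, limma). Krt20, a keratin of differentiated surface cells, differed by -0.12 ± 0.07 (adjusted p = 0.629, limma). Larger negative differences in the list were those of the cytochrome P450 gene Cyp2c55 at -0.56 ± 0.33, the sulfate transporter gene Slc26a2 at -0.34 ± 0.12 (adjusted p = 0.431, limma; negative in all 4 groups) and Ceacam10 at -0.32 ± 0.20. In all, 7 of the 9 colonocyte genes had a negative difference, as had 11827 of all 23332 clusters. The list median was -0.12, against -0.0025 for all clusters, and 0 were called where 0.42% of all clusters were, so the count says nothing particular about the list. The goblet cell median was -0.07, with Best2, a bicarbonate channel, at -0.27 ± 0.10 (adjusted p = 0.430, limma) and Tff3 at -0.01 ± 0.07.

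Of the smooth muscle genes 0 were called, where 0.42% of all clusters were, so the count says nothing particular about the list. All 4 measured members had a negative difference, as had 11827 of all 23332 clusters. The list median was -0.19, against -0.0025 for all clusters. Cnn1, the calponin of contractile cells, differed by -0.25 ± 0.08 (adjusted p = 0.396, limma) with medians of 10.45 and 10.98, and Lmod1, an actin-filament protein of smooth muscle, by -0.26 ± 0.09 (adjusted p = 0.397, limma) with medians of 6.32 and 6.79. Their per-array mean ran from 7.55 to 8.26 with pancreatic transcripts and from 7.58 to 8.48 without, so the classes overlapped.

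Few markers of other tissues were measured, and 0 were called beyond Bhlha15, which the stomach list shares. As 0.42% of all clusters were called, 0 calls in lists this small say nothing about whether a tissue was present. In the small intestine and Paneth cell list (3 measured) the median was -0.07 and 0 were called, with Lyz1, the Paneth cell lysozyme, at -0.07 ± 0.22. Apoa2 of the liver differed by -0.07 ± 0.10, Dcpp1 of the salivary gland by -0.08 ± 0.14, Cfd (adipsin) of fat by 0.21 ± 0.30, and the mesothelial genes Upk3b and Lrrn4 by 0.27 ± 0.23 and 0.10 ± 0.13. For T and NK cell genes (3 measured) the median was 0.04, with the chemokine Ccl5 at 0.55 ± 0.23 (adjusted p = 0.513, limma), and for myeloid and mast cell genes (4 measured) 0.03. None of these was called. No erythroid gene was measured under a single symbol.

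Cell state lists were close to 0 as well. The median was 0.003 for crypt and proliferation genes, with Ube2c of mitotic exit at 0.27 ± 0.14 (adjusted p = 0.611, limma), and 0.02 for the secretory pathway and unfolded protein response, and both medians turned negative with quantile normalisation, to -0.006 and -0.03. Immediate early and heat shock genes, which rise when tissue is handled, had a median of 0.10, with the transcription factor Jun at 0.16 ± 0.08 (adjusted p = 0.554, limma). The interferon response median was -0.08 and the enteroendocrine median -0.09. Against these, the acinar enzyme list had a median of 7.59, the acinar regulator and accessory list 2.04 and the islet list 0.08.

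**Figure D4:**
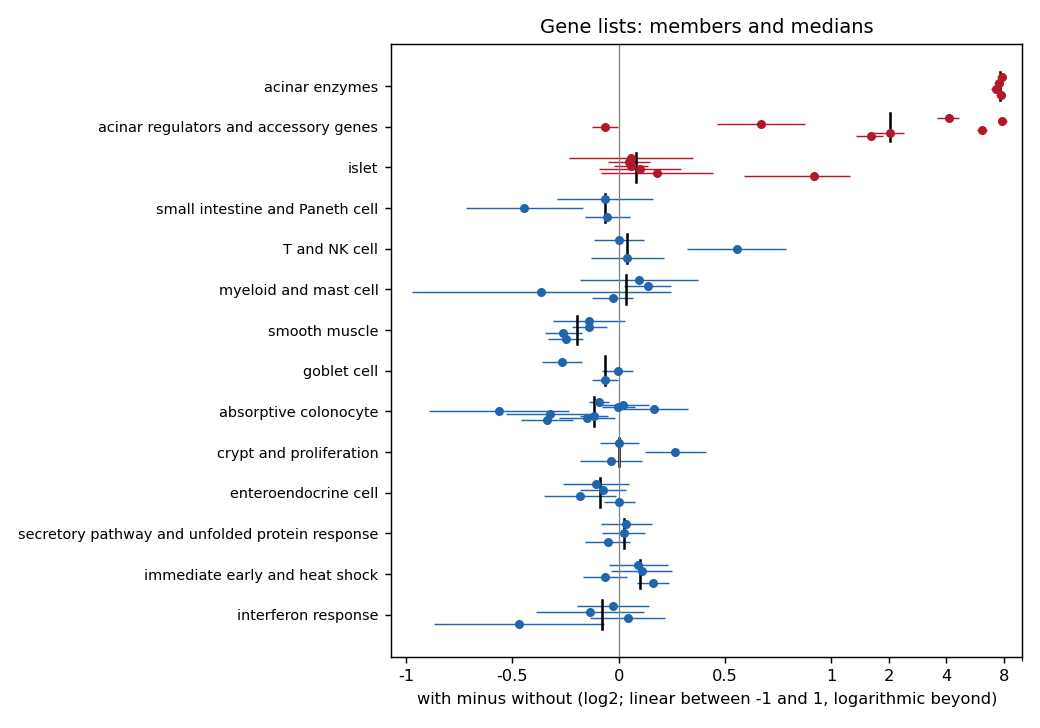
Difference between the classes for each measured member (points, with bars of 1 SE) of 14 gene lists with at least 3 measured members, with a vertical tick at the list median. The x axis is in log2 units, linear between -1 and 1 and logarithmic beyond. Pancreas lists are red: the acinar lists reach 7.85, and the islet points stay within 1 log2 unit of 0. The points of the colon, immune, process and small intestine lists (blue) also stay within 1 log2 unit of 0.

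The class difference was compared between the 4 treatment groups by an interaction term. By limma's F test 0 of 23332 clusters (0%) had an interaction past the threshold, with 1144 at an unadjusted p under 0.05 and 0 called by the ordinary F test as well. The smallest adjusted p was 0.204 over all clusters and 0.501 among the 98 called (limma). Leaving out CONV replicate 2 gave 5 called clusters, and leaving out UCC2003 replicate 1 or 3 gave 1. A group with 1 array in a class gives this test few degrees of freedom, so it does not show that the class difference was alike in the groups.

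The classes were unequally spread over the groups, and mean levels of acinar genes differed between treatments with wide errors. Mean Cpa1 was 11.07 for GF, 8.98 for UCC2003, 8.57 for CONV and 7.58 for the TadA mutant. Against GF the difference in Cpa1 was -3.48 ± 3.00 (SE) in TadA mutant, -2.49 ± 3.00 in CONV and -2.08 ± 3.00 in UCC2003. For Gp2 these were -3.27 ± 2.42, -2.60 ± 2.42 and -1.19 ± 2.42, and for Rbpjl -0.72 ± 0.71, -0.70 ± 0.71 and -0.21 ± 0.71, in the same order. Values with the class as a term are not given for acinar genes, since the class was made from Cpa1. The 3 differences share the same 4 GF arrays.

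For Ins1 the errors were narrower. Against GF it was -1.62 ± 0.57 in CONV, -1.42 ± 0.57 in TadA mutant and -0.99 ± 0.57 in UCC2003, and with the class term -1.39 ± 0.48, -0.96 ± 0.50 and -0.76 ± 0.48. Ins1 was not among the clusters called between treatments, with or without that term. GF replicate 1, at 6.89, lay within the 6.39 to 7.05 of the arrays without pancreatic transcripts. The class difference of Ins1 was 2.10 in GF, where it rests on 1 array without pancreatic transcripts, and -0.39 in CONV. The interaction test did not show that these differ. A single class term takes the difference as alike in all groups, so treatment and class are not separated here.

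In the authors' deposited table Cpa1 had a group mean of 11.07 for GF, 7.59 for the TadA mutant and 7.21 for CONV. The last of these is lower than the mean of 8.57 over the 4 CONV arrays. CONV thus lies below the TadA mutant there and above it here. For Rbpjl the authors' CONV mean was 5.51, where CONV replicates 1 to 4 had 5.41, 5.61, 5.52 and 6.89. The authors' CONV mean was 6.13 for Gamt, where CONV replicates 1 to 4 had 6.22, 6.35, 5.84 and 7.42. For Mt1 it was 10.45, against 10.47, 10.70, 10.34 and 12.17, and for Omg 5.78, against 6.16, 5.71, 6.19 and 5.69. The cause, and which CONV arrays entered the authors' means, was not tested. The authors' deposited table gave Cpa1 a signed fold of -17.97 for CONV over GF (p = 0.264) and of 11.1 for GF over TadA mutant (p = 0.300, ANOVA by the authors). Of the 98 clusters called between the classes, 96 are in the authors' deposited table. They were called for a difference within groups, which widens the spread that a test between groups is set against. Low counts of them between groups were therefore likely beforehand, and nothing is read from these counts. The pairs with CONV rest on the authors' CONV values, which differ from those here as given above. Of the 96, 0 had an adjusted p under 0.05 there in any of the 6 pairs of groups. Of all features of the authors' deposited table that threshold was passed by 2.32% in CONV over UCC2003, 1.8% in CONV over GF, 1.47% in CONV over TadA mutant, 0.0062% in GF over UCC2003 and 0% in the pairs GF over TadA mutant and TadA mutant over UCC2003. At an unadjusted p under 0.05 the authors' deposited table had 4 of the 96 in CONV over UCC2003 (19.4% of all its features), 2 in CONV over GF (13.6%), 1 in CONV over TadA mutant (15.6%) and 0 in GF over UCC2003 (8.18%), GF over TadA mutant (5.81%) and TadA mutant over UCC2003 (3.83%).

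Calls between treatments changed moderately with the class in the model. By limma's F test over the 4 groups, 364 clusters (1.56%) were called with the class as a term and 381 (1.63%) without it. The 2 sets shared 329 clusters, 90.4% of the first and 86.4% of the second. Slc13a2, a citrate transporter, had an adjusted p of 9.2e-06 with the term and 3.5e-06 without (limma), and Tnf, an inflammatory cytokine, 3.64e-05 and 1.11e-05 (limma). Their own class differences were 0.10 ± 0.08 and 0.01 ± 0.12. The count of 364 was 2 without the CONV group and 196 with the replicate number as a block. It was 218 without CONV replicate 2, 222 without UCC2003 replicate 3, 230 without CONV replicate 3 and 143 without CONV replicate 2 and TadA mutant replicate 4 together.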

How the data were processed

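Colon RNA of 16 arrays was measured. Per the submitters' processing notes, RMA, Affymetrix Expression Console 1.1, Partek and the build mm9 were used. The values the authors deposited per array are on the log2 scale, for 23332 transcript clusters (sets of probes summarised as 1 transcript). The authors' deposited comparison table (16135 features) holds log2 group means, a signed fold, which is a score with no values between -1 and 1, and the p-value and adjusted p-value of an ANOVA that the authors ran. It named exactly 1 gene for 1973 clusters (1964 symbols), of which 1901 were found in the RefSeq gene table of GRCm38.p6, 108 under a newer symbol. Cpa1 was the only row of its name.

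A linear model with treatment group (4 levels) and class (Cpa1 above 9) was fitted in limma 3.58.1 (R 4.3.3) to the 16 arrays together (prior degrees of freedom 2.22), with Benjamini-Hochberg adjustment over the whole table. The procedure was tested on simulated data. The class, its members and the 27 gene lists were chosen with earlier results of these data known, and the class was set on the same arrays that were tested, so an adjusted p measures association with the class and no more. Pancreas-list genes carry no p. Genes named are all measured pancreas-list members, the called clusters with 1 symbol outside them (clone-named and predicted genes excepted), up to 3 members per other list with 3 or more measured, the 10 most like Cpa1 and the 5 with the smallest p of each other test among those called. Some of the last are not reported here. Other members of lists described were added after their values were seen. Alternatives changed the scaling, filter, variance model, threshold and arrays. Array medians ran from 5.91 to 6.03, pairwise correlations over clusters from 0.938 to 0.979, and 0 pairs were identical. The number of arrays limits the precision. A gene-level table whose columns name groups only was not used here.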

Additional observations from a re-analysis of the deposited data

Results flagged for a closer look

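Single arrays stood apart from the other 3 of their treatment group (gap over range above Dixon's critical value for 4 samples at 95%) in 22 of 240 gene and group pairs examined. Chance flags about 1 in 20 groups. The genes were chosen partly for following the division, so these flags are not independent of each other.

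GF replicate 1, the 1 GF array without pancreatic transcripts, was low in Cpa1 (ratio 0.965, at 4.96 log2 units), Cel (0.929, 4.96), Rnase1 (0.964, 4.86), 2210010C04Rik (0.969, 4.70), Reg1 (0.928, 4.32), Gp2 (0.868, 5.13) and Mt1 (0.868, 11.40).

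TadA mutant replicate 2, the 1 array of its group with these transcripts, was high in Rbpjl (0.923, 7.16), Bhlha15 (0.972, 7.55), Tmed6 (0.842, 9.27) and Gamt (0.892, 8.01). CONV replicate 4 was high in Rbpjl (0.861, 6.89), Bhlha15 (0.894, 7.60) and Tmed6 (0.83, 8.84), and also in Ppy (0.946, 9.67) and in Retnla, a resistin-like gene of macrophages (0.954, 9.37).

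The others concern 1 gene each. Ppy was low on UCC2003 replicate 3 (0.95, 7.42). The interferon factor Irf7 was high on UCC2003 replicate 4 (0.869, 8.50), and Apoa4 stood apart on CONV replicate 1 (0.903, 5.45). In the GF group Neurog3, the enteroendocrine lineage factor, stood apart on replicate 2 (0.852, 5.16), Trib3 on replicate 3 (0.917, 5.28) and Spcs1, a signal peptidase subunit, on replicate 4 (0.866, 10.87).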

How the results depend on the processing

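The class count of 98 was within 1.5 times with median-centred arrays, quantile normalisation, a mean of at least 6 log2 units, a trended and robust prior, no CONV group, the Cpa1 level in place of the class and no group factor. It was 52 in the ordinary fit, 157 with array weights and 28 with a threshold of 7, which moves TadA mutant replicate 4 across. Leaving out 1 array gave 40 to 158. The interaction count was 0 in all other settings than leaving out 1 array, which gave 0 to 5. The treatment count of 364 was 2 without the CONV group, 143 without CONV replicate 2 and TadA mutant replicate 4 (an alternative chosen after seeing the data), and 218 to 384 without 1 array. Beyond the fewer arrays that some settings leave, the cause was not tested. No pairing by replicate number was seen: over 24 same-numbered pairs the correlation of deviations from group means ran from -0.305 to 0.206 (median -0.044), with 4 above 0.1. These deviations also hold the class difference, so a pairing is not excluded. With the replicate number as a block, the class count was 49 and the treatment count 196, and Mt1 and Omg lost their calls (adjusted p = 0.0862 and 0.0688, limma). Of 1522 alternative values of the named genes 47 lost the call. A changed sign occurred in 89, over 20 genes that were not called, and in 0 for the 5 called genes. Of 391 list medians 42, over 8 lists, changed sign, and 1 moved past the spread, small intestine and Paneth cell, to -0.46 without the CONV group. Depth in reads does not apply, and values near 4 to 5 log2 units lie below the array medians, so small differences there are the least certain.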
